A study of Mus musculus with 12 samples.

Results

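J2 and K1, 2 monoclonal antibodies against double-stranded RNA, were compared in small-intestinal epithelium of KAT2A/KAT2B DKO mice. The comparison used the 4 pulldown libraries of 2 DKO animals, 1 J2 and 1 K1 library from each animal, out of 12 libraries in the series. All animals were 3-month-old females. In DKO animals the histone acetyltransferase genes Kat2a and Kat2b were targeted in adults through 4 daily intraperitoneal injections of tamoxifen at 100 mg/kg in ethanol and corn oil. The 2 control animals received the solvent without tamoxifen, so genotype and tamoxifen exposure cannot be told apart. The Cre line is not given in the sources used here. Epithelium was taken from the proximal small intestine 2 days after the last injection, although the sample titles read whole intestine epithelial cells. Each animal also gave an input library with no antibody. The control pulldowns are used here as a background for the difference between antibodies.

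Double-stranded RNA forms where an RNA pairs with an antisense partner or folds back on itself, as inverted repeats and small structured RNAs do. J2 and K1 both recognise the helix itself and not its sequence, and K1 is known to bind the synthetic duplex poly(I:C) more readily than J2. In cells the main natural sources are transcripts of both strands of the mitochondrial genome and of repeated elements, and sensors such as MDA5 and ZBP1 start an interferon response when such RNA reaches them. A pulldown also holds RNA that is abundant or sticks to beads, so a difference between antibodies is a difference in what was recovered and not a direct measure of pairing.

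The DKO pulldowns were shallow and uneven. J2 of DKO animals 1 and 2 held 5826361 and 2691285 counts in genes, and K1 held 5559033 and 2220291, against 13308021 to 16139531 in the control pulldowns. Reads aligned to several places were 15.8% and 29.5% of the listed reads in DKO J2 and 25.9% and 46.7% in DKO K1, against 5.54% to 6.56% in the control pulldowns. Over 6815 genes with a mean of at least 50 counts, J2 and K1 had a Pearson correlation of log2 CPM (counts scaled by TMM to a common library size) of 0.972 in animal 1 and 0.906 in animal 2, while across animals the K1 libraries correlated at 0.892 and the J2 libraries at 0.746. Between animals 16.4% of the genes were at least 2-fold apart in K1 and 39.9% in J2. Kat2a counts were 32 and 37 in J2 and 41 and 22 in K1, and those of Kat2b were 126 and 74 in J2 and 145 and 62 in K1. Neither targeted gene was called between the antibodies (edgeR adjusted p 0.996 and 0.964). In input Kat2a had 84 and 148 counts in DKO and 222 and 228 in control, and Kat2b had 118 and 114 in DKO and 359 and 343 in control. Epithelial markers were present in the DKO pulldowns (Anpep, a brush border peptidase, had 4288 to 36758 counts). Of the 13 stromal, vessel and muscle markers, Acta2, Cdh5, Kdr and Lum had at most 1 count in any of them, while the collagen gene Col1a1 had 397 and 42 in J2 and 492 and 103 in K1.

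Few genes differed between the antibodies. Of 11336 genes tested with the animal as a block, 13 were called at an adjusted p under 0.05 (0.115%). Of these, 12 were higher in K1 (0.106%) and 1 higher in J2 (0.00882%). At an unadjusted p under 0.05 were 729 genes, 379 higher in J2 and 350 higher in K1. By annotated type the K1 side held 1 rRNA gene, 4 microRNA loci, 2 genes of 7SL RNA, 1 pseudogene and 4 protein-coding genes. These are labels of the annotation, and several of the loci share near-identical sequence. Which RNA the reads at the microRNA loci come from was not tested. The J2 side held a single antisense transcript. The block decides these calls, since none of the 13 passed without it and 25 genes then had an unadjusted p under 0.05. All 13 had the same direction in each animal alone, which is no further support because they were chosen from these same 2 animals. With 1 residual degree of freedom, edgeR gave every gene the same fitted trend of spread, so the p-values rest on a spread shared among genes. Its standard errors (SE) were larger for abundant genes, 0.33 for Mptx2, 0.87 for Malat1, 1.90 for Rpph1 and 2.41 for Gm26917. The lack of a call in an abundant gene therefore does not show that the antibodies recovered it equally.

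Sequences of called microRNA-annotated loci are shown because several are near-copies of each other and cannot be counted apart. The first 3 are from GENCODE M21 (GRCm38), written 5′ to 3′. Gm24270 lies on chr9:56223715-56223771, Gm24187 on chr13:9834469-9834525 and Gm25911 on chr1:167340369-167340424, all on the minus strand, and capitals mark the 23-base run that the 3 share.
Gm24270: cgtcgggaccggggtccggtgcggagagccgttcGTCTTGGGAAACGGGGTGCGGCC
Gm24187: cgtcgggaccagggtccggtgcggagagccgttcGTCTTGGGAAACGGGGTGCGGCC
Gm25911: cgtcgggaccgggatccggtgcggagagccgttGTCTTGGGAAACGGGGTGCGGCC
The annotated mature arm of the called Mir6236, from RefSeq (GRCm38.p6), is printed with bases 2 to 8, the seed, in capitals. The call is a count over the whole locus of 123 bases, so it does not show that a mature microRNA was recovered.
miR-6236: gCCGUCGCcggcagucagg

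Of the called genes, 1 annotated as ribosomal RNA had the smallest adjusted p. CT010467.1 (chr17:39846353-39848827, minus strand), the only gene of that annotated type with enough counts to test, had 56 and 152 counts in J2 of animals 1 and 2 and 1063 and 1027 in K1. Both J2 libraries were far below both K1 libraries. The means were 28.3 ± 23.7 CPM in J2 and 325 ± 165 CPM in K1 (SD, n = 2), a log2 fold change, J2 against K1, of -3.71 (SE 0.43, adjusted p 5.06e-14). In control the same gene had 7 and 6 counts in J2 and 247 and 600 in K1. Its exons overlap all of AY036118 on the same strand and almost all of Gm42418 on the other, with identical sequence. Both of those were listed at 0 counts in all 4 DKO pulldowns, and also in every other library, inputs included. Counting was without regard to strand, and reads in shared exon parts are ambiguous and were left out. The zeros therefore do not show that AY036118 and Gm42418 were not recovered. The count of CT010467.1 likewise rests on the small part of its exons outside these overlaps. Gm26917, a long noncoding RNA directly beside CT010467.1 on the plus strand, had the highest mean count over the DKO pulldowns and went the other way. It had 663135 and 312836 counts in J2 and 374764 and 195751 in K1. Its J2 values lay above its K1 values in both animals, by 0.90 and 0.14 on the log2 scale, but the fitted change of 0.52 (SE 2.41, adjusted p 0.990) did not pass.

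Of 9 tested genes of microRNA type, 4 were called, all higher in K1, and 6 were higher in K1 and 2 higher in J2 in both animals. Of all tested genes, 26.2% were higher in K1 and 27% higher in J2 in both animals. Gm24270 had 9 and 16 counts in J2 and 131 and 109 in K1, a log2 fold change of -3.50 (SE 0.43, adjusted p 1.4e-12). Gm25911 had 138 and 46 in J2 and 396 and 177 in K1, at -1.91 (SE 0.33, adjusted p 1.36e-05). Gm24187 and Mir6236 were near the detection limit in J2, and their folds are best read from the counts. Gm24187 had 2 and 3 counts in J2 and 38 and 26 in K1, a ratio of K1 to J2, each relative to its library totals, of 14.01 over both animals (95% exact interval 5.70 to 44.6, counting error only). Mir6236 had 1 and 4 counts in J2 and 67 and 39 in K1, a ratio of 23.2 (9.64 to 73.0). In each of these 4 loci both K1 libraries were above both J2 libraries. Gm24270 was 98.25% identical to Gm24187 and 96.49% identical to Gm25911 over 57 aligned bases, so the loci that share the capital run above are not independent. With a correction for GC content and length, Gm25911 was at -1.18 and was not called (adjusted p 0.148). A further copy with the same 57 bases as Gm24270, Gm23935 (chr16:11144125-11144181), was far more abundant, with 4009 and 2499 counts in J2 and 10464 and 5021 in K1. It was lower in J2 in both animals (-1.30 and -1.54) and did not pass (log2 fold change -1.42, SE 0.64, adjusted p 0.710), while edgeR without TMM scaling and DESeq2 called it.

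Rn7s1 and Rn7s6 are genes of 7SL RNA, the scaffold of the signal recognition particle that docks ribosomes at the endoplasmic reticulum, and both were higher in K1. Rn7s6 had 139 and 260 counts in J2 and 581 and 572 in K1, a log2 fold change of -1.82 (SE 0.36, adjusted p 5.16e-04). Rn7s1 had 243 and 471 in J2 and 1051 and 809 in K1, at -1.67 (SE 0.39, adjusted p 0.0207), and was not called with a correction for GC content and length (-1.31, adjusted p 0.281). Both K1 libraries lay above both J2 libraries for each gene. Rn7s2, with a transcript identical to that of Rn7s1, had 388 and 997 in J2 and 1962 and 1786 in K1, and its change of the same size, -1.81 (SE 0.47), did not pass (adjusted p 0.0685). 6 alternative settings with both animals called it, DESeq2 and limma voom among them. The list of structured RNAs made by RNA polymerase III, with telomerase RNA, held 8 tested members of 12, of which Rn7s1 and Rn7s6 were called and the median was -0.66, beside 0.03 over all genes tested. Of the 8, 5 were higher in K1 in both animals, where 26.2% of all genes were, and 3 had an unadjusted p under 0.05 on that side, with medians of -1.08 in animal 1 and -0.47 in animal 2. Rpph1, the RNA of ribonuclease P, had 196558 and 122423 counts in J2 and 372113 and 104730 in K1 (-0.58, SE 1.90, adjusted p 0.981), lower in J2 in both animals (-0.84 and -0.31). Rn7sk, the RNA that holds the elongation factor P-TEFb inactive, had 16685 and 117945 in J2 and 14354 and 35794 in K1 (0.74, SE 1.27, adjusted p 0.963). Rn7sk took 4.38% of all counts in J2 of animal 2 and 0.286% in J2 of animal 1, a gap between animals larger than that between antibodies.

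4 protein-coding genes and a pseudogene completed the K1 side. Lars2, the mitochondrial leucyl-tRNA synthetase, had 97 and 133 counts in J2 and 372 and 514 in K1 (log2 fold change -2.18, SE 0.35, adjusted p 9.84e-07). Selenok, a selenoprotein of the endoplasmic reticulum, had 37 and 63 in J2 and 171 and 97 in K1 (-1.63, SE 0.36, adjusted p 0.00744). Mptx2, a pentraxin made by Paneth cells, had 106 and 51 in J2 and 230 and 144 in K1 (-1.50, SE 0.33, adjusted p 0.00857). For these 3 genes no J2 library reached the lower K1 library. Slc25a17, a carrier of the peroxisome membrane, had 65 and 115 in J2 and 180 and 208 in K1 (-1.39, SE 0.33, adjusted p 0.0207), and its CPM values were separated narrowly, with 34.1 as the higher J2 value and 35.3 as the lower K1 value. Gm11964, a processed pseudogene 96.64% identical over 447 aligned bases to Edf1, had 11 and 46 in J2 and 55 and 90 in K1 (-1.79, SE 0.41, adjusted p 0.0133). Its CPM values overlapped between antibodies (2.28 and 13.6 in J2, 10.8 and 38.7 in K1), and the call came from the difference within each animal. A stretch of 72 bases within the Lars2 transcript was 98.61% identical to Gm15564, which had 0 and 3 counts in J2 and 7 and 21 in K1, and unstranded whole-gene counts do not show where in Lars2 the reads lie. Mptx2 was 92.33% identical to Mptx1 over 795 aligned bases. Selenok, Mptx2, Slc25a17 and Gm11964 were not called by DESeq2 (adjusted p 0.578 each) nor by edgeR without TMM scaling (0.230 to 0.386).

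Gm17477, an antisense transcript whose exons overlap those of Senp6 on the other strand, was the only gene called higher in J2. It had 151 and 119 counts in J2 and 43 and 38 in K1. The means were 33.3 ± 2.83 CPM in J2 and 12.4 ± 5.59 CPM in K1 (SD, n = 2), with no overlap, and the log2 fold change was 1.51 (SE 0.36, adjusted p 0.0295). In control it had 286 and 357 counts in J2 and 87 and 91 in K1. Reads in the exon part shared with Senp6 (108 bases, beside a transcript of 2581) are ambiguous and were left out. Counting without strand means that the strand of the remaining reads is not known. DESeq2 and edgeR without TMM scaling did not call Gm17477 (adjusted p 0.9998 and 0.317). Nor did edgeR on counts thinned to the smallest library (0.218) or in the fit of 8 pulldowns (0.0781).

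**Figure D1:**
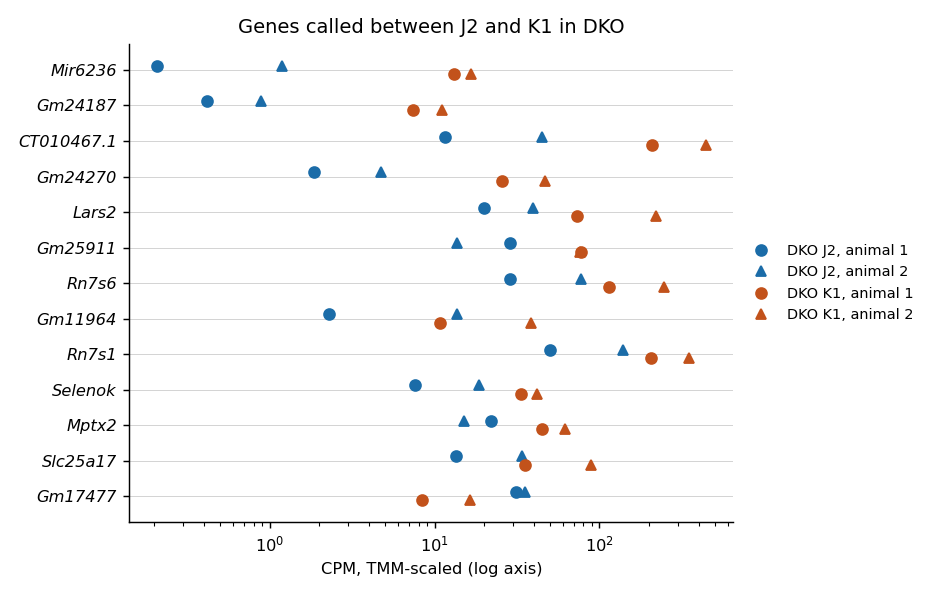
CPM of the 13 called genes in the 4 DKO pulldowns, on a log axis, with J2 in blue and K1 in orange, circles for animal 1 and triangles for animal 2. For 12 of them the J2 and K1 values do not overlap, and Gm11964 is the exception.

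The called genes had the same direction in control epithelium. Of the 13, 11 were tested in control, and all 11 were called there in the direction seen in DKO, where 61.8% of 13617 genes were called between the antibodies, 29.8% higher in J2 and 32% higher in K1. CT010467.1 was at -5.82 and Lars2 at -0.81 in control, and neither difference between genotypes passed (adjusted p 0.143 and 0.131). Gm24270 had 1 and 0 counts in J2 and 26 and 59 in K1 of control, too few in J2 for a fold.

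By the rule for further genes, those of smallest p on each side were listed although they did not pass. On the J2 side these were Gabpa, Fyb2, Ttll3, Il10rb, Rexo4, Acot12, Hmbox1, Igf2, Gca, Mdm4, Ccdc93 and Mid1. Gabpa, a subunit of an ETS-family transcription factor, had 222 and 65 counts in J2 and 68 and 28 in K1 (log2 fold change 1.30, SE 0.37, adjusted p 0.176), and part of its exons overlaps Atp5j on the other strand. Ttll3, a tubulin glycylase, had 158 and 175 in J2 and 73 and 56 in K1 (1.15, adjusted p 0.235). Fyb2, an adaptor protein, had 249 and 126 in J2 and 130 and 33 in K1 (1.18, adjusted p 0.194). On the K1 side they were Snrpc, Hopx, Rn7s2, Fn1, Vcpkmt and Chchd10. Hopx, a homeodomain cofactor, had 40 and 12 counts in J2 and 126 and 29 in K1 (-1.66, SE 0.43, adjusted p 0.0685). Snrpc, a protein of the U1 spliceosome particle, had 74 and 123 in J2 and 187 and 205 in K1 (-1.26, adjusted p 0.0685). Among all tested genes, both J2 values lay above both K1 values for 9.21% and below them for 9.44%, so a lack of overlap alone does not mark these genes.

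The 2 DKO animals agreed little on which genes J2 and K1 recovered differently. Over the 6815 genes with a mean of at least 50 counts, the J2 minus K1 difference of animal 1 and that of animal 2 correlated across genes at 0.155 and had the same sign for 53.5%. In control the same measure over 10093 genes was 0.926, with 89.4% of one sign. Genes are not independent replicates. The median absolute difference was 0.246 and 0.427 in the DKO animals and 0.407 and 0.470 in the control animals. The common dispersion of the blocked fit was 0.0505 in DKO and 0.00286 in control.

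**Figure D2:**
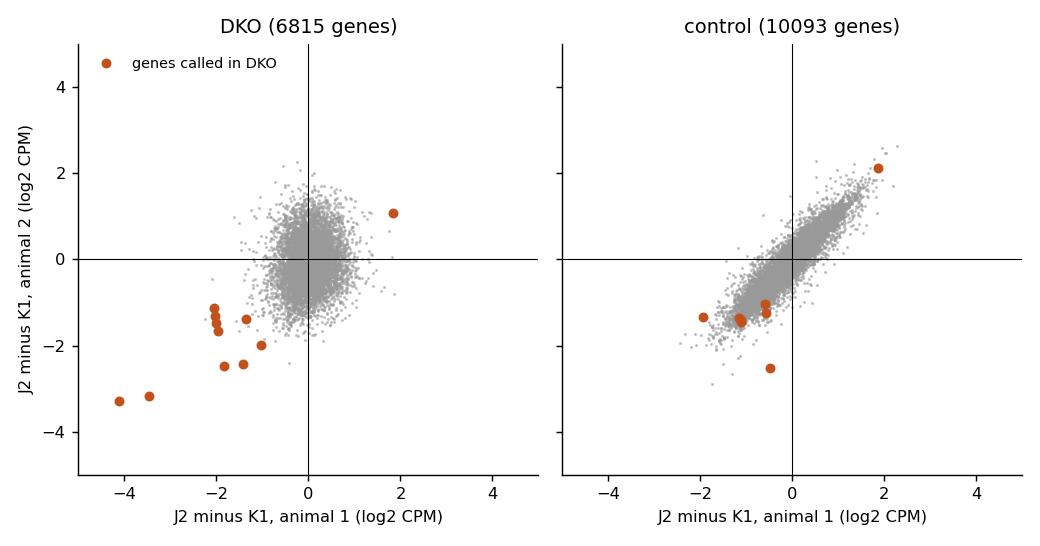
J2 minus K1 (log2 CPM) of each gene in animal 1 (horizontal) against animal 2 (vertical), for DKO (left, 6815 genes) and control (right, 10093 genes), each point a gene with a mean of at least 50 counts and orange marking genes called in DKO. The DKO cloud is round (r 0.155) and the control cloud lies along the diagonal (r 0.926).

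What the DKO animals had in common followed the control pattern in part. The fitted differences of DKO and control correlated at 0.459 over 6678 genes with at least 50 counts in both, with the same sign for 64.8%. Of the 200 genes with the largest J2-side change in control, 103 were higher in J2 in both DKO animals, against 27% of all tested genes, and 161 had a fitted value above 0, with a median of 0.45. Of the 200 with the largest K1-side change in control, 121 were higher in K1 in both DKO animals, against 26.2% of all, and 170 were below 0, with a median of -0.44. These sets were chosen on control libraries, which share no sample with the DKO comparison.

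Mitochondrial RNA went in opposite directions in the 2 DKO animals. mt-Nd5, a complex I subunit, was the largest mitochondrial signal, with 403636 counts in J2 and 245739 in K1 of animal 1, and 116279 in J2 and 206320 in K1 of animal 2. J2 exceeded K1 by 0.80 on the log2 scale in animal 1 and was below it in animal 2 (-1.36). mt-Nd1 had 100955 and 34888 counts in J2 and 64589 and 63935 in K1, with differences of 0.72 and -1.41. All 13 protein-coding genes of the mitochondrial genome showed this split, with medians of 0.47 in animal 1 and -1.18 in animal 2. None was called, at adjusted or unadjusted p, and the fitted median was -0.36. In control all 13 were called higher in J2, with a median of 0.93. mt-Nd6, the coding gene on the opposite strand from the rest, had the same split (0.36 and -1.49). The mitochondrial ribosomal RNA mt-Rnr2 had 62730 and 18221 counts in J2 and 32413 and 27208 in K1 (1.03 and -1.11), and mt-Rnr1 had differences of 0.65 and -1.27. Mitochondrial genes took 13.1% and 8.76% of the counts in DKO J2 and 8.76% and 18.6% in DKO K1, but 1.403% to 2.77% in the control pulldowns. Without mitochondrial genes in the scaling the number of called genes remained 13.

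**Figure D3:**
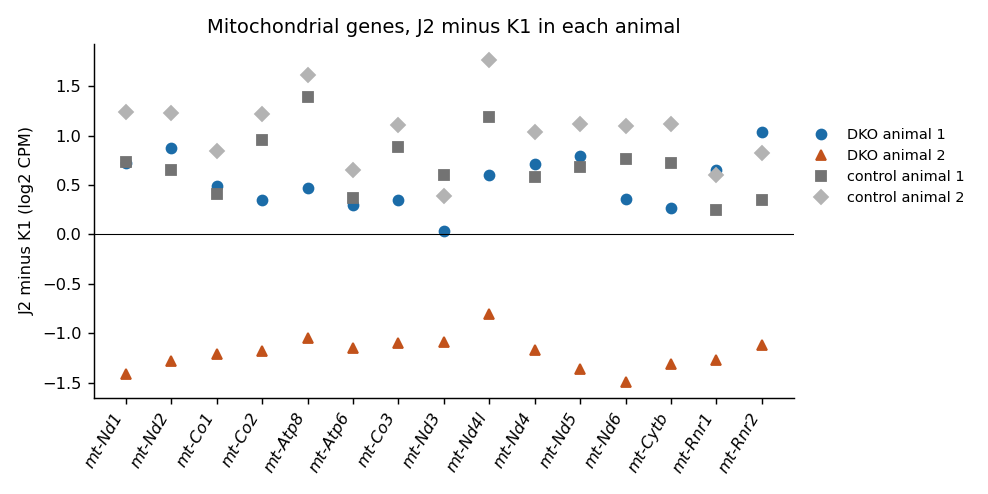
J2 minus K1 (log2 CPM) of the 13 protein-coding genes and 2 ribosomal RNAs of the mitochondrial genome in each of the 4 animals. DKO animal 2 (orange triangles) lies below 0 for each of the 15 genes, while DKO animal 1 and both control animals lie above.

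Paneth cell markers lay on the K1 side in both animals. Paneth cells, which release antimicrobial proteins at the crypt base, had 8 of 8 tested markers higher in K1 in both animals, where 26.2% of all genes were. Of these 1 was called, Mptx2, and all 8 had an unadjusted p under 0.05. The list median was -1.11 (-0.74 in animal 1 and -1.43 in animal 2), beside 0.03 over all genes. Itln1, an intelectin, had 1168 and 1394 counts in J2 and 2115 and 2692 in K1 (log2 fold change -1.13, adjusted p 0.699). Lyz1, Paneth cell lysozyme, had 895 and 624 in J2 and 1286 and 1134 in K1 (-0.92, adjusted p 0.730). Defa24, a defensin, had 181 and 176 in J2 and 314 and 336 in K1 (-1.09, adjusted p 0.235). Itln1, Lyz1 and Defa24 were singled out after their values were seen. In control the list median was -1.14, with 7 of 8 called higher in K1 and 1, Lyz1, called higher in J2.

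Goblet, enteroendocrine and enterocyte markers had smaller shifts to the same side and no called member. At an unadjusted p under 0.05 on the K1 side were 4 of 10, 3 of 9 and 1 of 15, where 350 of all 11336 genes were. DESeq2 and limma voom called no member of any list in which edgeR called none. Goblet cell markers had a median of -0.84 (-0.56 in animal 1 and -1.14 in animal 2), with 8 of 10 higher in K1 in both animals. Muc2, the gel-forming mucin, had 15475 and 2355 counts in J2 and 22422 and 4087 in K1 (-0.89, SE 0.75, adjusted p 0.892). Fcgbp, a mucus protein, had 26871 and 3794 in J2 and 48582 and 8137 in K1 (-1.20, SE 0.92, adjusted p 0.870). K1 was above J2 within each animal for both genes. Enteroendocrine markers had a median of -0.61, with 6 of 9 tested members higher in K1 in both animals. Chgb and Chga, granins of hormone granules, had changes of -0.67 (SE 0.33) and -0.67 (SE 0.33). Enterocyte markers had a median of -0.47 (-0.17 in animal 1 and -0.55 in animal 2), with 12 of 15 higher in K1 in both animals. Apoa1, an apolipoprotein, had 35135 and 5384 counts in J2 and 56119 and 7745 in K1 (-0.83, SE 0.95), and Anpep was close to even (-0.20, SE 0.87). Tuft cell markers had a median of 0.26 over 7 tested members. Leukocyte markers had a median of 0.24 over 10 tested members of 16, with summed levels of 948 and 274 CPM in J2 and 1251 and 438 CPM in K1. Cd74 (-0.84) and Igha (-0.80), their most abundant members, were lower in J2 without passing. Stromal and vessel markers had only 4 tested members of 13, among them Col1a1 (-0.91) and Col1a2 (-0.87), and summed to 147 and 35.9 CPM in J2 and 175 and 79.1 CPM in K1. Whether different cell make-up of the material played a part was not tested.

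**Figure D4:**
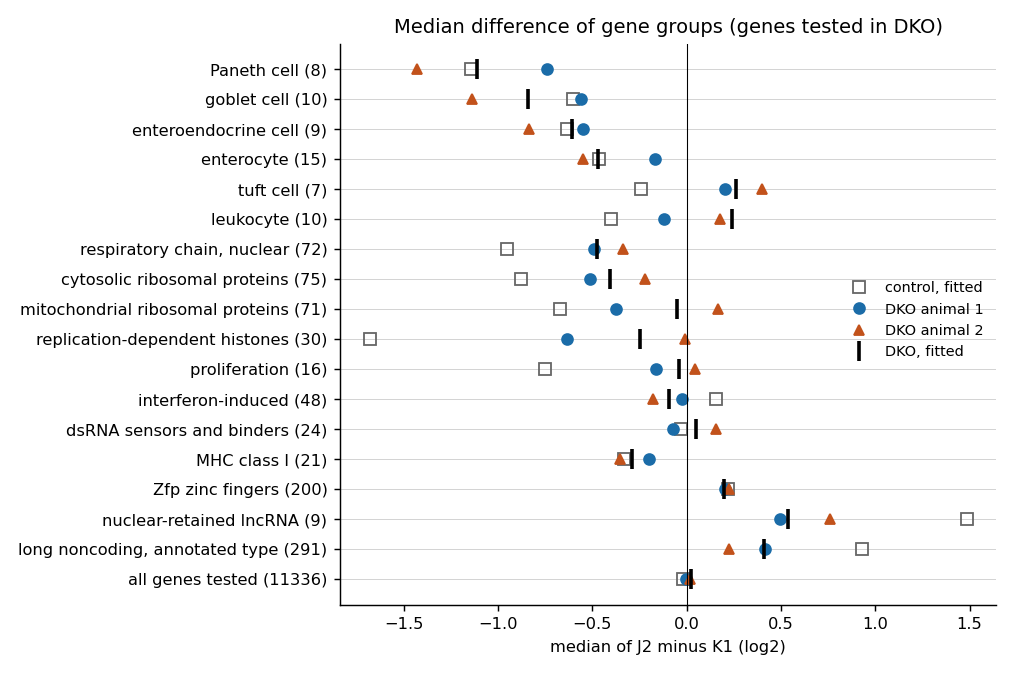
Median J2 minus K1 (log2) of gene groups, with DKO animal 1 as circles, DKO animal 2 as triangles, the DKO fit as black ticks and the control fit as open squares, and the number of genes tested in DKO in brackets. Paneth, goblet, enteroendocrine and enterocyte markers lie below 0 in both DKO animals, and histone genes lie closer to 0 in DKO than in control.

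Long noncoding RNAs were on the J2 side. Among 291 tested genes of long noncoding type in the nuclear genome, 121 were higher in J2 in both animals and 33 higher in K1 in both. Of all tested genes 27% and 26.2% were. The median of the 291 was 0.41, with 1 called, Gm17477. Of 11 listed nuclear-retained long noncoding RNAs, 9 were tested and 7 of those were higher in J2 in both animals, with a median of 0.54, none called and 2 at an unadjusted p under 0.05. Malat1, a component of nuclear speckles, had 13123 and 27962 counts in J2 and 8585 and 11384 in K1 (log2 fold change 0.73, SE 0.87, adjusted p 0.939). Within each animal the difference was similar, 0.69 and 0.76. Firre, an X-linked RNA that anchors chromosome contacts, had 228 and 1056 in J2 and 192 and 290 in K1 (0.84, SE 0.36, adjusted p 0.680). In control the nuclear list had a median of 1.48, with 7 of 7 called higher in J2. Zinc finger genes of the Zfp series had a median of 0.20, with 87 of 200 higher in J2 in both animals and 30 higher in K1 in both.

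Genes of the translation and respiration machinery were on the K1 side, with none called. Nuclear-encoded respiratory chain subunits had a median of -0.48, with 46 of 72 higher in K1 in both animals and 16 of 72 at an unadjusted p under 0.05. Of all genes tested, 26.2% were higher in K1 in both animals, and 350 of 11336 had such a p on that side. Atp5a1 of the ATP synthase had 5537 and 1038 counts in J2 and 6209 and 1788 in K1 (-0.70, SE 0.56), and Sdha of complex II had 5046 and 1109 in J2 and 6550 and 1987 in K1 (-0.83, SE 0.56). Cytosolic ribosomal proteins had a median of -0.41, with 45 of 75 higher in K1 in both animals and 10 at an unadjusted p under 0.05. Rpl4, of the large subunit, was at 0.13 (SE 0.42). Mitochondrial ribosomal proteins had a median near that of all genes (-0.05).

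Genes of the double-stranded RNA response showed no consistent side. Of 48 genes induced by interferon, all were tested and none was called by edgeR, with 1 at an unadjusted p under 0.05 and a median of -0.09. Of these, 15 were higher in J2 and 18 higher in K1 in both animals. Irf7, a transcription factor that drives interferon genes, had 9313 and 4010 counts in J2 and 8255 and 4236 in K1 (-0.18, SE 0.66). Ifit1bl1, an interferon-induced gene of the Ifit family, had 5729 and 706 in J2 and 6349 and 1027 in K1 (-0.57, SE 0.54). Of 26 listed sensors and binding proteins of double-stranded RNA, 24 were tested and none was called, at adjusted or unadjusted p, with a median of 0.05. Zbp1 was at 0.20 and Oas3 at -0.35. The MHC class I genes H2-D1 (-0.43) and H2-K1 (-0.68) were lower in J2 in both animals and did not pass.

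Small nuclear and nucleolar RNAs were, like mitochondrial RNA, split between the animals. The 29 tested snoRNA and Cajal body RNAs, which guide modification of other RNAs, had a median of -0.73 in animal 1 and 0.42 in animal 2. The 5 tested genes of small nuclear RNA type had -0.55 and 1.79. None of either list was called. Medians are also given for brush border enzymes (-0.20), lipid absorption genes (-0.29, with 9 of 15 higher in K1 in both animals), nutrient transporters (-0.12), chaperones of the endoplasmic reticulum (-0.12), stem cell markers (0.01) and proliferation markers (-0.04), again with no called member.

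Transcript length and base composition tracked the difference weakly. Medians of J2 minus K1 rose from -0.14 among the 2264 shortest transcripts (up to 1902 bases) to 0.12 among the 2264 longest. Spearman's rho across 11318 genes was 0.181 for length (0.308 in animal 1 and 0.023 in animal 2, beside 0.371 in control) and -0.098 for GC content (beside -0.320 in control). Of the 12 genes higher in K1, 11 were among these 2264 shortest. Inverted repeats within a transcript can fold into a long hairpin, so transcripts were scored for their best self-complementary stem (seed of 12 bases, 1 per match, -2 per mismatch). The 142 genes with a score of at least 40 had a median of 0.08 and none called, and the 10819 genes under 20 had a median of 0.02. High-scoring transcripts were longer (median 5285 against 3295 bases), and among the longest transcripts the medians were 0.09 for a score of at least 40 and 0.12 for a score under 20. The genes scoring at least 40 had medians of 0.19 in animal 1 and -0.06 in animal 2. In control the medians were 0.37 and -0.09. None of the 13 called genes scored 20 or more. The search took no gaps and no G-U pairs, and Rn7s1 and Rn7s6, genes of a structured RNA, scored 0. It therefore cannot decide whether the called RNAs are paired. A score from annotated exons leaves out introns and pairing between separate RNAs.

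Whether the difference between antibodies depended on genotype was tested with all 8 pulldowns. Of 14285 genes, 1 was called (0.007%), Hist1h3f, a replication-dependent histone H3 gene, with 2348 at an unadjusted p under 0.05. It had 37 and 90 counts in J2 and 26 and 31 in K1 of DKO, and 194 and 142 in J2 and 781 and 591 in K1 of control. J2 was above K1 in both DKO animals (0.54 and 0.97) and below it in both control animals (-1.82 and -1.88), a difference of 2.68 on the log2 scale (SE 0.29, adjusted p 0.0323). Other Hist1h3 genes cover 65.7% of its transcript with near-identical sequence, so its count is uncertain. DESeq2 gave Hist1h3f no adjusted p and called 32 other genes, and edgeR without control replicate 1 or 2 did not call it (adjusted p 0.281 and 0.584).

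Other histone genes had values on the same side as Hist1h3f. These short messenger RNAs end in a stem-loop in place of a poly(A) tail. For 29 of 30 members tested in both genotypes, both DKO animals lay above both control animals in J2 minus K1, where 31.8% of all 10956 such genes did. The same held for 10 of 16 proliferation markers (62.5%), 44 of 72 respiratory chain subunits (61.1%) and 44 of 75 cytosolic ribosomal proteins (58.7%). Both DKO animals lay below both control animals for 9 of 13 mitochondrial coding genes (69.2%) and 5 of 7 nuclear-retained long noncoding RNAs (71.4%). Of all such genes 22.1% did. The median of both these lists was above 0 in control. The histone list median was -0.25 in DKO and -1.69 over the same genes in control. Smaller differences in DKO were not particular to histone genes. The 200 genes with the largest K1-side change in control had medians of -1.46 in control and -0.44 in DKO. The 200 on the J2 side had 1.45 and 0.45. The share over all genes is therefore not a background matched for the size of the control difference. In DKO 0 were called by edgeR and 2 of 30 had an unadjusted p under 0.05, where 729 of all 11336 genes did. The DKO animals had medians of -0.63 and -0.01, and the fitted median was 0.12 without DKO replicate 1 and -0.60 without DKO replicate 2. Hist1h1d had 297 and 585 counts in J2 and 328 and 327 in K1 of DKO (log2 fold change 0.12), against -1.65 in control, and Hist1h1e was at -0.27 against -1.53. These differences of 1.77 and 1.27 did not pass (adjusted p 0.128 and 0.135). Scaling moved the median difference between genotypes over all genes from 0.09 to 0.22 without TMM and to -0.04 with DESeq2 size factors. In the main fit the median difference was 1.51 over the 45 histone genes tested for the interaction. Whether scaling played a part in the histone difference was not tested.

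Xbp1, the transcription factor of the unfolded protein response, went the other way. Its messenger RNA carries the paired hairpins at which IRE1 cuts it. It had 1002 and 992 counts in J2 and 1929 and 1636 in K1 of DKO, and 10460 and 8233 in J2 and 4507 and 3205 in K1 of control. J2 was below K1 in both DKO animals (-0.86 and -1.26) and above it in both control animals (1.39 and 1.52), and the difference of -2.52 (SE 0.34) missed the threshold (adjusted p 0.0979). DESeq2 called it (adjusted p 1.89e-11), as did edgeR without TMM scaling (0.0403) and on counts thinned to the smallest library (0.0334). Rbm17, Tcof1, Sart1 and Stmn1 were the other genes with a relatively higher J2 signal in DKO by the naming rule (differences of 1.79, 1.63, 1.44 and 1.79), and Golt1b, Magt1, Mmgt1, Zhx1 and Atf7 those with a lower one (-2.56, -2.07, -2.67, -1.68 and -1.29). None of these passed in edgeR.

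**Figure D5:**
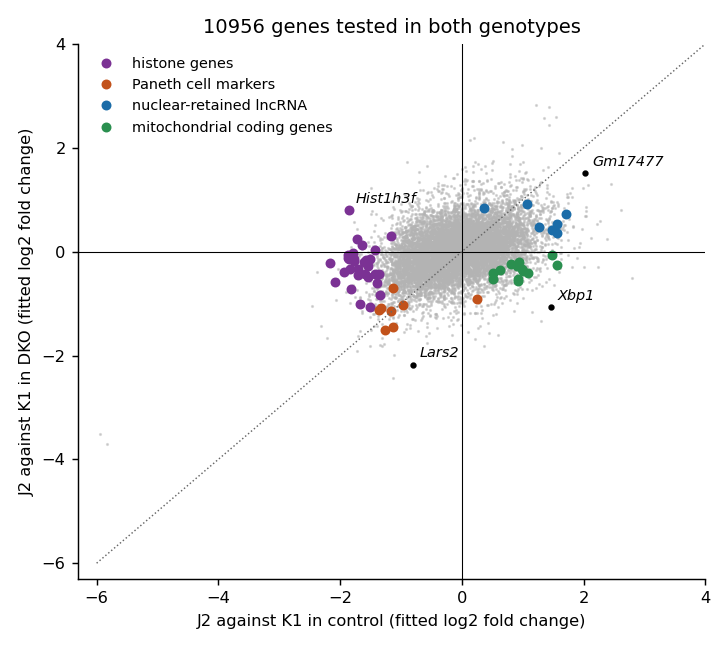
Fitted log2 fold change of J2 against K1 in control (horizontal) and in DKO (vertical) for 10956 genes tested in both, with 4 groups in colour and the line of equality dotted. Histone genes lie left of 0 in control and near 0 in DKO, Paneth cell markers lie near the line except Lyz1, and Hist1h3f and Xbp1 fall on opposite sides of 0 in the 2 genotypes.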

How the data were processed

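RNA bound by J2 or K1 was sequenced as read pairs after random priming and removal of ribosomal RNA. The authors deposited 1 file of raw counts for each library, counted without regard to strand per the labels. STAR 2.7.10b, UMI-tools 1.1.4, HTSeq 2.0.2 and the builds mm10 and GRCm38.p4 are named in the submitters' processing notes, without their role. Reads aligned to several places, outside genes or ambiguous are listed apart and entered neither library sizes nor tests. Symbols and positions came from GENCODE M21 (GRCm38), which matched 48144 of 48526 rows without the version suffix.

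The main test was the quasi-likelihood test of edgeR 4.0.16 (R 4.3.3) on the 4 DKO pulldowns, with the animal as a block, TMM scaling and genes kept by filterByExpr at a minimum of 10. Genes were called at p under 0.05 after Benjamini-Hochberg adjustment. Adjusted p-values are from it unless another tool is named. Log2 fold changes are J2 against K1, negative where K1 was higher, and per-animal values are differences of log2 CPM with a prior count of 2. The dependence on genotype was tested as an interaction in the 8 pulldowns. The block comes from the file name label, which gives J2 and K1 of 1 replicate number the same animal code, and deviations of J2 and K1 from their group means correlated at 0.818 over 6815 genes. In the main test, p-values rest on a spread between these 2 animals that is shared among genes, and not on each gene's own spread. The test was also run on simulated data, with results not reported here.

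Named genes are Kat2a and Kat2b, the called genes, up to 12 per side by smallest p with a mean of at least 50 counts and no overlap, called or most abundant list members, the 5 most abundant genes per antibody and 6 per side of the interaction. Members and lists were chosen with earlier results of these data known. Alternatives were limma voom (limma 3.58.1), DESeq2 1.42.0, other scalings and filters, thinning, a GC and length correction and leaving out each animal. Transcripts were compared with blastn 2.17.0+. Some sequences and 1 gene are not reported here.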

Additional observations from a re-analysis of the deposited data

Results flagged for a closer look

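Hist1h3f was singled out because J2 against K1 differed between DKO and control by the interaction test, at 2.68 on the log2 scale. Its call ended in edgeR without the block (adjusted p 1.00), with DESeq2 size factors (0.0624), without TMM (0.203), without a filter (0.111) and on thinned counts (0.103).

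Reads aligned to several places were not used in any comparison and were above the control pulldowns (at most 6.56% of the listed reads) in each DKO pulldown. They were 15.8% in J2 and 25.9% in K1 of animal 1, and 29.5% in J2 and 46.7% in K1 of animal 2. K1 was above J2 in both DKO animals. The genes these reads come from were not tested.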

How the results depend on the processing

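The number of genes called between J2 and K1 in DKO was 13, and it was 0 without the replicate block (25 at an unadjusted p under 0.05), 8 in the fit of 8 pulldowns and 10 to 14 in the other 10 settings with both animals, edgeR with robust estimation among them, which was chosen after seeing the data. Higher in J2 were 0 without the block, without TMM, with DESeq2 and with 8 pulldowns, and 2 without a filter and with the GC and length correction. Higher in K1 were 0 without the block. Leaving out a replicate gave 1715 to 3435 called genes (1087 to 1620 higher in J2, 628 to 1815 higher in K1), with the remaining pair assumed to vary like control. List members called went from 4 to 0 without the block and to 184 to 286 without a replicate. CT010467.1, Gm24270, Lars2 and Rn7s6 were called in each setting with both animals other than the fit without the block. DESeq2 called 7 of the 13, and the 13 genes kept their direction in each setting that tested them. The interaction count of 1 became 0 without the block, with DESeq2 size factors and without a filter, 32 with DESeq2, and 0 to 4058 without a replicate. Control calls went from 8422 to 5147 without the block.

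Signs changed for these genes. Kat2a was 0.0081 without the block, 0.0127 without TMM and 0.15 on thinned counts. mt-Rnr2 was 0.0278 without the block, 0.0173 without TMM, 0.0043 with a mean of at least 50 counts and 0.0627 with the GC and length correction. Without 1 DKO replicate, values ran from -0.46 to 0.0665 for Anpep, -0.039 to 0.28 for Hist1h1d, -0.64 to 0.28 for Irf7, -0.25 to 0.19 for Kat2a, -0.83 to 0.13 for Oas3, -0.0376 to 0.44 for Zbp1, -1.43 to 0.75 for mt-Nd1, -1.39 to 0.82 for mt-Nd5, -1.51 to 0.38 for mt-Nd6, -1.30 to 0.67 for mt-Rnr1 and -1.14 to 1.06 for mt-Rnr2. List medians without DKO replicate 1 and without DKO replicate 2 were -1.21 and 0.50 for mitochondrial coding genes, 2.00 and -0.43 for small nuclear RNA, 0.37 and -0.85 for snoRNA and 0.12 and -0.60 for histone genes. The cause of these changes was not tested. Depth limits the genes with few counts in J2.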
